A study of Mus musculus with 19 samples.

Results

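The Cyp3a genes encode cytochrome P450 enzymes of subfamily 3A, and 8 of them were followed in mouse hepatocytes: Cyp3a11, Cyp3a25, Cyp3a13, Cyp3a59, Cyp3a41a, Cyp3a41b, Cyp3a44 and Cyp3a16. They were picked by gene symbol from the deposited table, where they were 8 of 24537 genes. Poly(A) RNA came from hepatocytes isolated by 2-step liver perfusion, with 1 library per mouse. All 19 mice were male wild-type C57BL/6J animals. The young group held 10 mice labelled 5 months old, and the old group held 9 mice labelled 24 months old. The labels give birth and cull dates, from which young mice were 140 or 163 days old and old mice 719 or 742 days old. Mice were culled on 2 days that lay 23 days apart, with 5 of each age on the first and 5 young beside 4 old on the second. No mouse is labelled as treated or genetically altered. Mice are named by the library numbers that their labels carry.

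Cytochromes P450 of this subfamily sit in the endoplasmic reticulum and insert oxygen into steroids, bile acids and many drugs. Their electrons come from P450 oxidoreductase, and their catalytic centre is a haem. In liver their transcription is induced through the pregnane X receptor (PXR, gene Nr1i2) and the constitutive androstane receptor (CAR, gene Nr1i3), each paired with a retinoid X receptor. Cyp3a11 is the usual mouse counterpart of human CYP3A4. Cyp3a41a, Cyp3a41b and Cyp3a44 are known as forms that predominate in adult female liver, and Cyp3a16 as a form of fetal and neonatal liver.

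Counts over genes ranged from 17381439 to 20287628 per library. Alb, the albumin gene, had the highest level of all genes in 19 of 19 libraries, and the 17 other-than-Cyp3a hepatocyte markers found in the table summed to 131000 to 186000 CPM (counts after scaling for library size) in young and 143000 to 233000 CPM in old libraries. The 3 lowest young sums, 131000 to 137000 CPM, were those of mice 1184, 1186 and 1188, and the other 7 young mice had 166000 to 186000 CPM. None of these hepatocyte markers was at 0. In edgeR, where 16.3% of all genes tested rose with age and 14.5% fell, 2 of the 17 rose and 6 fell (8 fell in DESeq2), with a median log2 fold change of -0.22; the smallest adjusted p-values were those of the amino acid and urea cycle enzyme genes Tat (-1.10), Cps1 (-0.64), Ass1 (-0.61) and Hpd (-0.46), while Alb rose (0.47). Markers of other cells were present too. The 14 stellate cell markers summed to 53.5 to 142 CPM in young and 154 to 522 CPM in old mice, the 14 macrophage markers to 101 to 501 and 68.4 to 3360 CPM, and the 14 endothelial markers to 201 to 384 and 216 to 716 CPM. In edgeR, 12 of 13 tested stellate, 13 of 14 macrophage and 10 of 14 endothelial markers rose with age, beside the same 16.3% of all genes. The leading ones were Lrat (1.52), Reln (1.44), Dcn (1.62) and Ecm1 (1.43) of stellate cells, Lyz2 (2.48), Marco (2.16), Cd68 (1.74) and C1qa (1.72) of macrophages, and Fcgr2b (0.90), Kdr (0.77), Clec4g (0.72) and Bmp2 (0.72) of endothelium, as log2 fold changes. The B cell gene Jchain (2.14) and the neutrophil gene Csf3r (2.10) also rose. On the first cull day alone, 4 of 13 stellate, 0 of 14 macrophage and 0 of 13 endothelial markers rose (1.88% of all genes). On the second, 11 of 13, 14 of 14 and 8 of 14 rose (12.2% of all genes). With all libraries, limma-voom called 9 of the 14 macrophage markers higher. Young mice 1184, 1186 and 1188, all of the first cull day, stood apart in a list of 28 acute-phase genes, the liver secretory genes induced by inflammation. Their sums over that list were 76938 to 126180 CPM, against 24305 to 30331 CPM in the other 7 young mice and 31148 to 89670 CPM in old mice. In such bulk libraries, fewer cells of a type and less RNA per cell cannot be told apart. Nothing in the labels beyond 1 library per mouse says how separate the animals were in housing or litter, so p-values measure the spread between these mice.

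The table places all 8 genes on chromosome 5 of mm10 (GRCm38). Of these, 7 lie within 677 kb (145436309 to 146113283), in the order Cyp3a16, Cyp3a41b, Cyp3a41a, Cyp3a44, Cyp3a11, Cyp3a25 and Cyp3a59, and only Cyp3a59 is on the plus strand. Cyp3a13 (137892933 to 137921619, minus strand) lies 7.51 Mb away. Cyp3a11 spans 145854607 to 145879854, Cyp3a25 spans 145977194 to 146009617, and Cyp3a59 spans 146079258 to 146113283. The 250 bases before each start site, from RefSeq on GRCm38.p6, were compared between members. All 8 genes had an entry. Of the 6 sequences below, those of Cyp3a11, Cyp3a41a and Cyp3a44 and those of Cyp3a25 and Cyp3a59 are shown as sets of like windows before genes of very different transcript level. That of Cyp3a13 is shown as the window of the member outside the cluster. Capitals mark AGGTCA and AGTTCA, hexamers that nuclear receptors such as PXR can bind in pairs, and CAAAGTCCA, a strong form of the site of the hepatocyte factor HNF4 alpha, each on either strand. The windows are chr5:145879855-145880104 (minus strand) for Cyp3a11, chr5:145720137-145720386 (minus) for Cyp3a41a, chr5:145805875-145806124 (minus) for Cyp3a44, chr5:146009619-146009868 (minus) for Cyp3a25, chr5:146079008-146079257 (plus) for Cyp3a59 and chr5:137921620-137921869 (minus) for Cyp3a13.
Cyp3a11: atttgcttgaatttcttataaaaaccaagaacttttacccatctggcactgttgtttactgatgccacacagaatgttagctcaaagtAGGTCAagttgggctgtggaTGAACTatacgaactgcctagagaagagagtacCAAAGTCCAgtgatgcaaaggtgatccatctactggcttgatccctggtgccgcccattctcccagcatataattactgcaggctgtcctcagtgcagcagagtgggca
Cyp3a41a: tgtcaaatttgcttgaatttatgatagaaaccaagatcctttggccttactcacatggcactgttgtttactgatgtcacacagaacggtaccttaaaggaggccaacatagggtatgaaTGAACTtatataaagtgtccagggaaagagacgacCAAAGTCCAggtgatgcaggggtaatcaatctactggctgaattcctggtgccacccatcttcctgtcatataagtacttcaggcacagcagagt
Cyp3a44: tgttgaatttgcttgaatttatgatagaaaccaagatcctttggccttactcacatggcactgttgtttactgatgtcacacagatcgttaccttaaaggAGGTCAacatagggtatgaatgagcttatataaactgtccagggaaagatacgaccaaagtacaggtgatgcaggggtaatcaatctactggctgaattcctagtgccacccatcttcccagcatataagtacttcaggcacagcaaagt
Cyp3a25: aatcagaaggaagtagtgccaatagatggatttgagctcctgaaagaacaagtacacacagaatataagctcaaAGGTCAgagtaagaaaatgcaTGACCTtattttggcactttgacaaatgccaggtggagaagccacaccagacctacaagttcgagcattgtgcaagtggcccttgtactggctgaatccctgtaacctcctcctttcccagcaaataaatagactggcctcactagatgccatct
Cyp3a59: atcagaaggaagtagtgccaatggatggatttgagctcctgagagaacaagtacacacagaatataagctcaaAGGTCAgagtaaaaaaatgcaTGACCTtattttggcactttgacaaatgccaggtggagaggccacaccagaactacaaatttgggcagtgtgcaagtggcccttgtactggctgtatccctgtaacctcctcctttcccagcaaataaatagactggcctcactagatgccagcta
Cyp3a13: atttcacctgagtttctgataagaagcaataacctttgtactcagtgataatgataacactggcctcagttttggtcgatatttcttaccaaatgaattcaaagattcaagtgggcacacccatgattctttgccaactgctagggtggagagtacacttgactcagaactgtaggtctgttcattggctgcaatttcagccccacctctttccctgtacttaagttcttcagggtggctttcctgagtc

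Cyp3a25 and Cyp3a59 were 95.6% identical in these windows, and both held AGGTCA on the gene's strand and again on the opposite strand. Cyp3a11 was 80.9% identical to Cyp3a41a and 80.9% to Cyp3a44 in the aligned bases, but 63.6% to Cyp3a25 and 63.3% to Cyp3a13. CAAAGTCCA was found in 4 of the 8 windows, those of Cyp3a11, Cyp3a41a, Cyp3a41b and Cyp3a16, and in 0.38% of all 27025 RefSeq promoter windows of the same length. These 4 windows are alike, so they are not 4 separate finds. Identity was 99.6% between Cyp3a41a and Cyp3a41b, 93.9% between Cyp3a41a and Cyp3a16, and 83.3% between Cyp3a11 and Cyp3a16. AGGTCA was in the windows of Cyp3a11, Cyp3a25, Cyp3a59 and Cyp3a44 and in 13.84% of all windows. AGTTCA was in those of Cyp3a11, Cyp3a41a and Cyp3a41b and in 11.9% of all windows. The STAT palindrome TTCNNNGAA was in none of the 8 windows and in 7.18% of all windows. Both strands were searched, and these motifs do not contain each other. The Cyp3a13 window held none of the capitalised motifs. A match here is a description of letters, not of binding.

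Likeness of the transcripts limits how far reads can be told apart. In GENCODE M21, the Cyp3a41a and Cyp3a41b transcripts were 99.9% identical, and 88.4% of all 100-base windows of Cyp3a41a, the read length named in the labels, also occurred in Cyp3a41b. Their counts are therefore uncertain as a division between the copies. For Cyp3a25 and Cyp3a59, at 97.0% identity, 5.6% of windows were shared. Cyp3a11 shared 0.3% of its windows with any other member, although it was 94.7% identical to Cyp3a41a, and Cyp3a13 shared 0.0%. How reads with several matches were counted is not given in the sources used here.

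The family was dominated by Cyp3a11. Compared per kb of transcript, mean levels over the 19 libraries fell in the order Cyp3a11 (1157 ± 249 CPM per kb, SD, n = 19), Cyp3a25 (241 ± 52.9), Cyp3a13 (62.0 ± 17.3), Cyp3a59 (11.4 ± 4.03), Cyp3a41a (0.677 ± 0.170), Cyp3a44 (0.288 ± 0.126), Cyp3a16 (0.159 ± 0.0654) and Cyp3a41b (0.0452 ± 0.0388). Each of the first 5 genes lay above the next in 19 of 19 libraries. Cyp3a44 was above Cyp3a16 in 18 and Cyp3a16 above Cyp3a41b in 17 of 19, where levels rest on few counts and the spreads overlap. The step from Cyp3a25 to Cyp3a13 was 3.89-fold and that from Cyp3a59 to Cyp3a41a 16.8-fold. By mean CPM, Cyp3a11 ranked 51 among 24537 genes, Cyp3a25 ranked 252 and Cyp3a13 ranked 683.

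**Figure D1:**
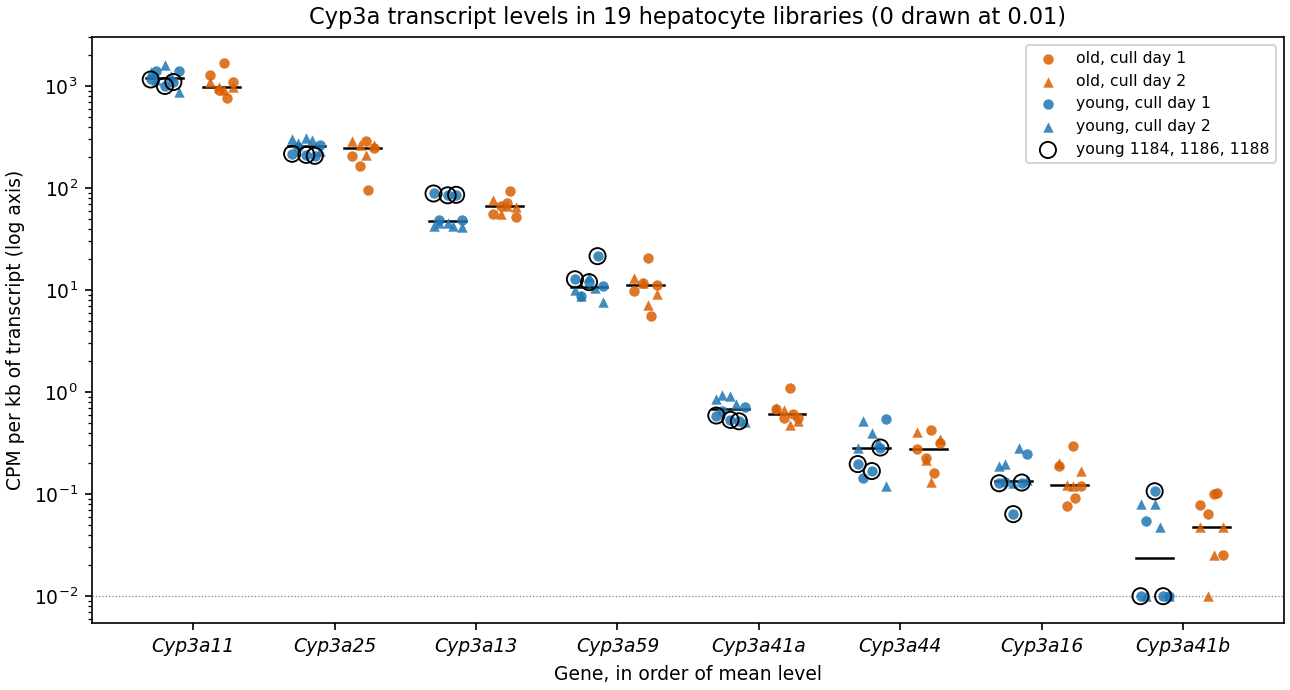
Level of each Cyp3a gene per library, in CPM per kb of transcript on a log axis, with young mice in blue, old mice in orange, circles for the first and triangles for the second cull day, and black bars for group medians. The ringed young mice 1184, 1186 and 1188 sit with the highest old mouse for Cyp3a13. The other 7 young mice, left once those 3 are set aside, lie below all old mice for that gene.

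As a share of all counts over genes, the 8 genes together took 0.233% to 0.387% in young mice (median 0.324%) and 0.193% to 0.416% in old mice (median 0.282%). The ranges overlapped, and the widest came from old mice 1189 and 1181. Cyp3a11 supplied 74.6% to 81.2% of the family's counts in young and 73.0% to 81.5% in old mice. Cyp3a25 supplied 14.0% to 19.4% and 9.33% to 19.4%. The share of Cyp3a13 ranged from 3.31% to 9.13% in young and 4.91% to 13.6% in old mice. Relative to its size it varied more than that of Cyp3a11, whose share fills most of the family and so has little room to vary. In CPM over the 19 libraries, the SD was 28.0% of the mean for Cyp3a13 and 21.5% for Cyp3a11. Cyp3a59 supplied 0.493% to 1.45%, and the 4 main genes together made up at least 99.89% of the family's counts in every library.

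**Figure D2:**
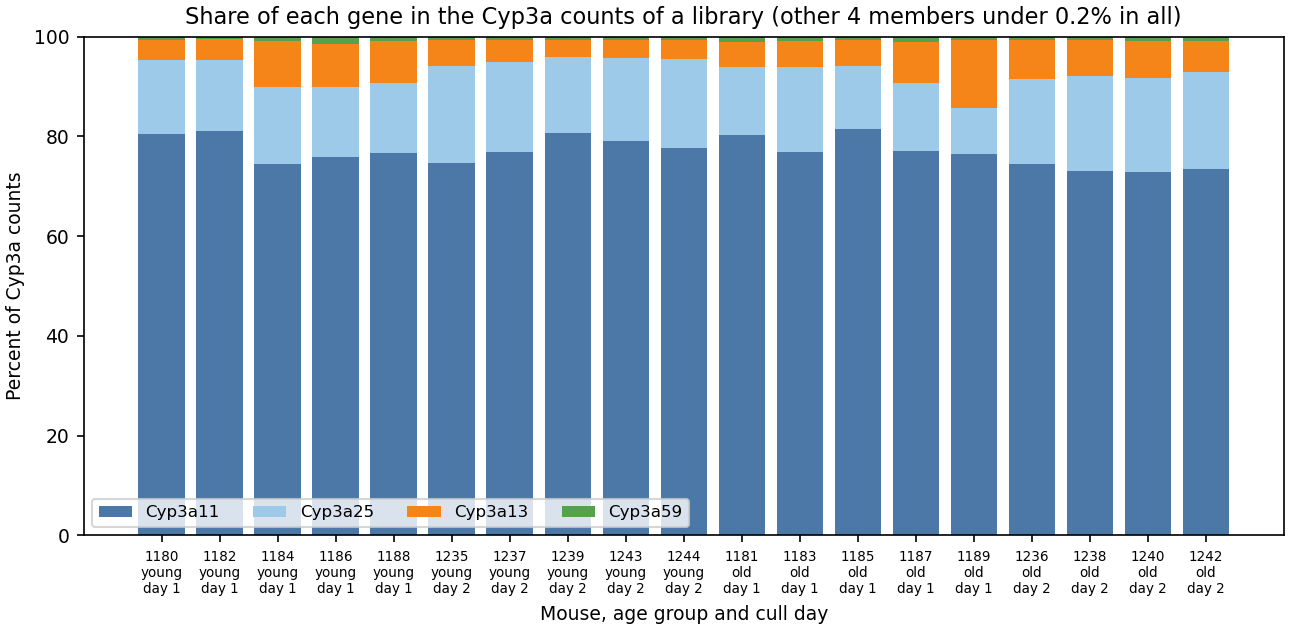
Share of each gene in the Cyp3a counts of a library, in percent, with 1 bar per mouse labelled by library number, age and cull day. Cyp3a11 fills 73.0% to 81.5% of every bar, and the Cyp3a13 segment is widest in old mouse 1189, at 13.6%.

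The design asks whether these transcripts differ between 5 and 24 months. With all mice and cull day as a covariate, 0 of the 6 members that passed the filter on low counts changed with age in edgeR, where 30.9% of all 12269 genes tested did (16.3% higher and 14.5% lower in old mice). At an unadjusted p under 0.05 the count of members was also 0, where 5193 of the 12269 genes had one. DESeq2 and limma-voom each called 0 members, and 4114 and 3998 genes. The filter left out Cyp3a16 and Cyp3a41b. The 6 fitted log2 fold changes (old over young) ran from -0.20 to 0.25, with 5 below 0, and the median over all genes tested was -0.003.

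Cyp3a11, the most abundant of these monooxygenases, ranged from 1765 CPM through a median of 2457 to 3271 CPM in young mice and from 1563 through 1996 to 3388 CPM in old mice. The ages overlapped: 1 old mouse (1181) lay above every young mouse and 1 (1189) below. The fitted level in old mice was 0.870-fold that in young mice (log2 fold change -0.20, SE 0.137, edgeR adjusted p = 0.276), with a 95% interval of 0.714 to 1.06-fold. On the first cull day the log2 fold change was -0.08 (SE 0.212) and on the second -0.33 (SE 0.146, edgeR adjusted p = 0.137). Without young mice 1184, 1186 and 1188 it was -0.32 (edgeR adjusted p = 0.123). With single mice left out it ranged from -0.30 (without old mouse 1181, edgeR adjusted p = 0.0712) to -0.15, never past the threshold.

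Cyp3a25, its neighbour toward Cyp3a59 and also a hepatic steroid hydroxylase, ranged from 410 through 510 to 618 CPM in young and from 191 through 489 to 578 CPM in old mice. Of the old mice, 3 (1185, 1187 and 1189) lay below every young mouse, and the lowest was again 1189, at 191 CPM. The log2 fold change was -0.17 (SE 0.143, edgeR adjusted p = 0.394), a 0.891-fold level with a 95% interval of 0.724 to 1.10-fold. Leaving out mouse 1189 moved it to -0.08, and leaving out mouse 1181 to -0.25, with neither past the threshold.

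Cyp3a13, the member outside the cluster, showed the clearest pattern across mice. Young mice 1184, 1186 and 1188 had 249, 252 and 260 CPM. The other 7 young mice had 122 to 142 CPM, and the 9 old mice had 154 to 277 CPM, with a median of 197 CPM. Every old mouse therefore lay above those 7 young mice, while 1 old mouse (1189, 277 CPM) lay above all 10. The 7 are what remained once the 3 highest young values were set aside. The share of all genes that separate likewise was not counted. With all libraries the log2 fold change was 0.25 (SE 0.149, edgeR adjusted p = 0.206), a 1.19-fold level with a 95% interval of 0.960 to 1.48-fold. Single mice left out gave 0.19 to 0.31, never past the threshold.

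On the second cull day, which held none of those 3 mice, Cyp3a13 was 122, 124, 126, 134 and 135 CPM in the 5 young mice. It was 164, 192, 197 and 225 CPM in the 4 old mice, all above those young values. The share of all genes that separate in this way on that day was not counted. It rose there, with a fitted difference of 0.60 on the log2 scale (SE 0.0928, edgeR adjusted p = 0.00155). It was the only 1 of the 6 members called higher on that day, against 12.2% of the 12362 genes tested then (7.14% lower, 19.3% in either direction). On the first cull day the 5 young mice ranged from 142 to 260 CPM and the 5 old mice from 154 to 277 CPM, and the log2 fold change was -0.06 (SE 0.226, edgeR adjusted p = 0.885, where 3.67% of all genes were called, 1.88% higher and 1.79% lower).

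Leaving out young mice 1184, 1186 and 1188 from the fit over both days gave Cyp3a13 a log2 difference of 0.56 (SE 0.108, edgeR adjusted p = 0.00248). In that fit 1 of 6 members was called higher, where 14.6% of 12354 genes were called higher and 12.5% lower (27.2% in either direction). These 3 mice were set aside for standing apart in an earlier look at these data, and they also hold the 3 highest young values of Cyp3a13. The p-value therefore describes a trimmed young group and is not independent of the values. Whether the age difference itself differed between the days was asked with an age-by-day term. For Cyp3a13 the term was 0.66 (SE 0.263, unadjusted p = 0.0212, edgeR adjusted p = 0.708). In edgeR 0 of 6 members passed for this term, with 1 (Cyp3a13) at an unadjusted p under 0.05, and 0.0% of 12269 genes passed (6.51% at an unadjusted p under 0.05). DESeq2 called 0 of the 3 members to which it gave an adjusted p (Cyp3a11, Cyp3a13 and Cyp3a25) and 20 of the 12269 genes. Limma-voom called 1 member, Cyp3a13 (0.99, adjusted p = 0.0249), among 307 of the 12269 genes. Without the 3 young mice the term was 0.10 (edgeR adjusted p = 0.9996). That fit held 2 young mice on the first cull day, with the 3 highest young values removed, so it cannot show that the days agree.

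**Figure D3:**
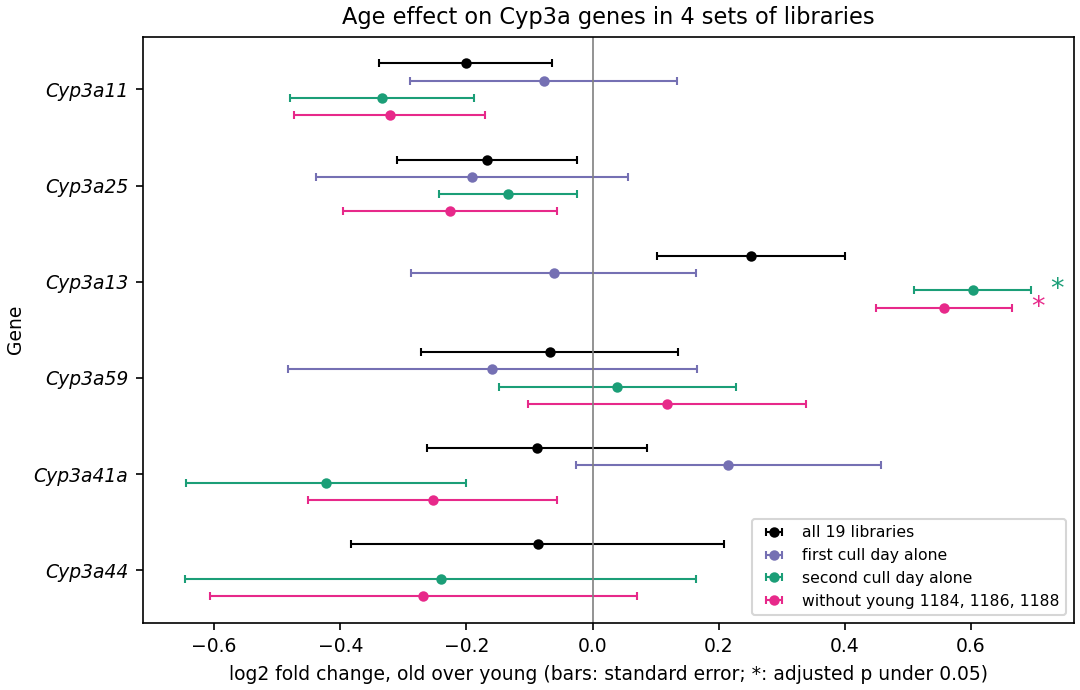
Age effect on the 6 tested Cyp3a genes as log2 fold change of old over young, with bars for the standard error and stars for an edgeR adjusted p under 0.05, in 4 sets of libraries. Stars stand only beside Cyp3a13, on the second cull day alone (0.60) and without young mice 1184, 1186 and 1188 (0.56); Cyp3a44 was too low to be fitted on the first cull day alone.

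The acute-phase list was read beside Cyp3a13. Old mouse 1189, with the most Cyp3a13, had the highest sum over that list among old mice (89670 CPM). Old mouse 1183, with the least Cyp3a13 among old mice (154 CPM), had the lowest sum (31148 CPM). In edgeR, 0 of the 28 acute-phase genes passed by age with all libraries (2 at an unadjusted p under 0.05; 1 lower in DESeq2 and 1 higher in limma-voom). On the second cull day 23 of 28 rose, where 12.2% of all genes did. Without the 3 young mice 22 of 28 rose, where 14.6% of all genes did. The latter count is not independent of the trimming, since those mice had the highest young sums over this same list, and it supports nothing. The part of the acute-phase response in the Cyp3a13 result was not tested. The same mouse 1189 had the lowest Cyp3a11 and Cyp3a25 of all 19. Young mice 1184, 1186 and 1188 had 2036, 2224 and 2356 CPM of Cyp3a11, inside the range of the other 7 young mice (1765 to 3271 CPM). Of those 7, the 2 of the same cull day, 1180 and 1182, had 2849 and 2854 CPM, above all 3. The Cyp3a25 of mice 1184, 1186 and 1188, at 410 to 430 CPM, lay below the 459 to 618 CPM of the other 7.

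**Figure D4:**
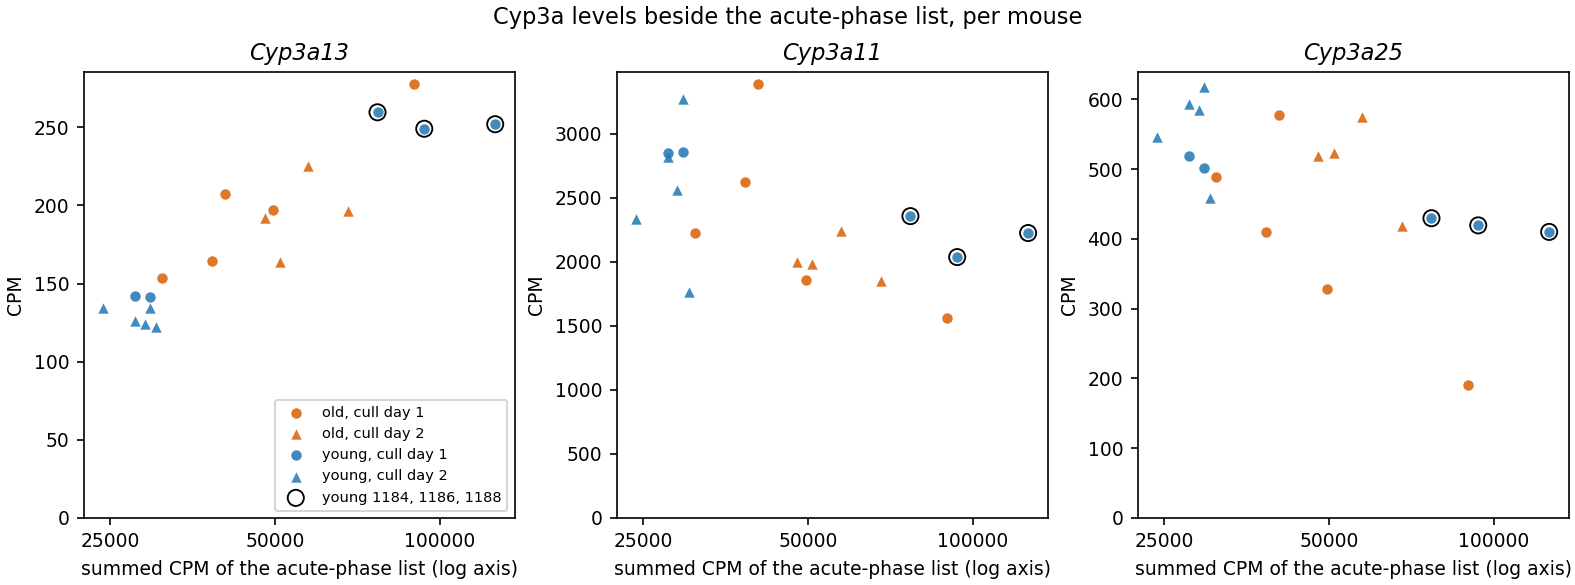
Level in CPM of Cyp3a13, Cyp3a11 and Cyp3a25 in each mouse against the summed CPM of 28 acute-phase genes on a log axis, with colours, shapes and rings as for the plot of levels per library. The 4 mice with the largest sums, the ringed young mice (76938 to 126180 CPM) and old mouse 1189 (89670 CPM), had the 4 highest Cyp3a13 values, and in between the order of the mice differs between the axes (old mouse 1242 had a sum of 50970 CPM and 164 CPM of Cyp3a13, old mouse 1181 40533 and 207 CPM).

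Cyp3a59, the near-copy of Cyp3a25, stood at 15.0 through 21.5 to 42.6 CPM in young mice and 11.0 through 22.2 to 41.2 CPM in old mice. The 2 high values came from young mouse 1186 and old mouse 1181, and the ages overlapped. The log2 fold change was -0.07 (SE 0.203, edgeR adjusted p = 0.822), with a 95% interval of 0.710 to 1.28-fold. The ratio of Cyp3a25 to Cyp3a59 counts ranged from 9.63 (mouse 1186) to 31.9 in young mice and from 14.0 to 29.9 in old mice. In the 7 young mice other than 1184, 1186 and 1188 it was 23.3 to 31.9. The transcripts did not keep a fixed proportion between mice.

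The female-predominant forms were near the limit of these libraries. Cyp3a41a had 18.5 to 34 counts in young libraries (median 25.75) and 19 to 43.5 in old libraries (median 25.5). Old mouse 1181 alone lay above every young mouse. The log2 fold change was -0.09 (SE 0.174, edgeR adjusted p = 0.728), and the 95% interval was 0.731 to 1.21-fold. Leaving out old mouse 1181 moved the log2 fold change to -0.22, and leaving out old mouse 1236 to -0.02, with neither past the threshold. Cyp3a44 had 3.5 to 19.5 counts in young and 5 to 15.5 in old libraries. Its fitted difference was -0.09 on the log2 scale (SE 0.295, edgeR adjusted p = 0.845), with a 95% interval of 0.614 to 1.44-fold. Cyp3a41b had 0 to 3.5 counts in young and 0 to 4 counts in old libraries, about the floor of 3 counts used here, so no fold is given. Its mean CPM did not pass by an exact permutation test within cull days (two-sided, exact p = 0.407, adjusted p = 0.766 over 2 genes). Summing Cyp3a41a, Cyp3a41b and Cyp3a44 into 1 feature gave -0.06 on the log2 scale (SE 0.189, edgeR adjusted p = 0.828).

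Other genes known for female-biased expression in liver were read from the same fit. Of 13 tested from a list of 23, 6 rose and 0 fell, with a median log2 fold change of 0.88, where 16.3% of all genes rose and 14.5% fell. The list summed to 31.4 to 40.2 CPM in young mice 1184, 1186 and 1188, 53.3 to 548 CPM in the other 7 young mice and 135 to 877 CPM in old mice. Those that rose included Ntrk2, a neurotrophin receptor gene (3.21, SE 0.353, edgeR adjusted p = 1.79e-05), Nipal1, a magnesium transporter gene (1.72, SE 0.285), Abcd2, a peroxisomal fatty acid transporter gene (1.49, SE 0.443), and Cyp2b9, a cytochrome of another subfamily at 0 to 0.158 CPM in young and 1.94 to 83.2 CPM in old mice. Of 21 male-biased genes tested, 0 rose and 14 fell (median -0.76), among them the glucuronosyltransferase genes Ugt2b1 (-0.90, SE 0.114) and Ugt2b38 (-0.83), the major urinary protein gene Mup7 (-3.64) and Cyp4a12b, a fatty acid hydroxylase gene (-1.54, SE 0.261). The difference between these lists and the Cyp3a forms was not tested.

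Cyp3a16, the form of fetal liver, had 1.5 to 9.5 counts in young and 3 to 9.5 counts in old libraries, with the same median of 4.5. It did not pass by the exact permutation test within cull days (two-sided, exact p = 0.766, adjusted p = 0.766 over 2 genes). Of 3 tested genes in the list on fetal liver outside the family, 1 passed, a share near the 30.9% of all genes tested. It is not itself a fetal form: Zbtb20, known as the postnatal repressor of the fetal gene for alpha-fetoprotein, fell (log2 fold change -1.04, SE 0.255, edgeR adjusted p = 0.00588).

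Levels of several members varied together among mice of the same age and cull day. After the mean of each age and cull day was removed, Pearson's r of log2 CPM over 19 libraries was 0.84 between Cyp3a11 and Cyp3a25 and 0.81 between Cyp3a11 and Cyp3a41a. Between Cyp3a25 and Cyp3a59 it was 0.65. Between Cyp3a13 and Cyp3a25 it was -0.52, and between Cyp3a13 and Cyp3a11 -0.39. With Cyp3a59, Cyp3a41a and Cyp3a44, Cyp3a13 had values of 0.12, -0.12 and -0.15. Over the 16 libraries without young mice 1184, 1186 and 1188, the first 5 pairs gave 0.84, 0.79, 0.86, -0.56 and -0.22, and the last 3 gave -0.26, 0.17 and -0.02. These values are descriptions, since the points share library composition and scaling.

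Genes outside the family were ranked by the same measure, leaving out predicted or unnamed ones (Gm or LOC with digits, or Rik). Among the tested genes left, the 3 most like Cyp3a11 were Car5a, a mitochondrial carbonic anhydrase gene (r = 0.91), Pex16, a peroxisome assembly gene (0.90), and Elovl5, a fatty acid elongase gene (0.89). For Cyp3a25 they were Akr1d1, which encodes the steroid 5-beta-reductase of bile acid synthesis (r = 0.93), the histone deacetylase gene Hdac11 (0.90) and Fn3k, a protein deglycation kinase gene (0.90). For Cyp3a13 they were Serpina10, an inhibitor of coagulation proteases (r = 0.94), Fgl1, a fibrinogen-like secreted protein gene (0.93), and Itih4, an acute-phase gene of the list above (0.91). Over the 16 libraries the last 3 values were 0.85, 0.86 and 0.86. Cyp3a59 was most like Uaca (r = 0.85), with Fam129b (0.80) also among its closest. Cyp3a41a was most like Chadl (0.86), Rdh16 (0.79) and Mme (0.77), and Cyp3a44 like Eda (0.80), Evi5l (0.79) and Col4a3bp (0.78).

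The regulators of the family were then set beside it. Of 20 tested genes for PXR, CAR and their partner factors, 1 rose and 3 fell with age (median log2 fold change -0.14), where 16.3% of all genes tested rose and 14.5% fell. These shares hold for each count of edgeR calls with all libraries in the lists that follow. Mean Nr1i2 was 54.7 ± 9.37 CPM at 5 months (SD, n = 10) against 50.4 ± 6.49 CPM at 24 months (SD, n = 9). Its log2 fold change was -0.10 (SE 0.0932, edgeR adjusted p = 0.429). Nr1i3 averaged 46.2 ± 17.6 and 43.6 ± 12.9 CPM, with -0.03 (SE 0.216, edgeR adjusted p = 0.925). Neither receptor gene passed the test. Nr1i3 was 18.8 to 34.0 CPM in young mice 1184, 1186 and 1188, 31.4 to 71.1 CPM in the other 7 young mice and 24.9 to 67.0 CPM in old mice. The genes that fell were Ncoa1, a nuclear receptor coactivator (-0.42, SE 0.105), Hnf4a, the hepatocyte nuclear receptor whose site is marked above (-0.30, SE 0.0984), and Rxra, the shared partner of PXR and CAR (-0.27, SE 0.0827). Rxrg, a scarce form of that partner at 3.31 CPM in young mice, rose by 0.47 (SE 0.150). Rxra was 469 to 506 CPM in young mice 1184, 1186 and 1188, 306 to 380 CPM in the other 7 young mice and 254.5 to 415 CPM in old mice. Without those 3 mice, 0 genes of the list rose and 2 fell, where 14.6% of all genes rose and 12.5% fell.

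Genes that serve P450 catalysis came next. Of 8 tested electron donors, 0 rose and 1 fell: Cyb5b, a cytochrome b5 (-0.37, SE 0.107, edgeR adjusted p = 0.0156). DESeq2 called 2 lower, as did edgeR on the second cull day (7.14% of all genes) and without young mice 1184, 1186 and 1188 (12.5%). The list summed to 2880 to 3110 CPM in those 3 mice, 3450 to 4200 CPM in the other young mice and 2480 to 3460 CPM in old mice. Por, which encodes P450 oxidoreductase, had a mean of 190 ± 49.7 CPM at 5 months (SD, n = 10) against 154 ± 27.0 CPM at 24 months (SD, n = 9) and did not pass (-0.32, SE 0.135, edgeR adjusted p = 0.0811). Among genes of haem synthesis, Ppox rose (log2 fold change 0.30, edgeR adjusted p = 0.0218), while Cpox (-0.37, edgeR adjusted p = 0.0116) and Uros (-0.35, edgeR adjusted p = 0.022) fell. Alas1, the rate-limiting enzyme of haem synthesis, averaged 167 ± 130 CPM in young and 92.8 ± 23.5 CPM in old mice and did not pass (-0.83, SE 0.377, edgeR adjusted p = 0.0981).

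Of 21 tested genes known as PXR or CAR targets outside the family, 2 rose and 3 fell (median 0.14), while limma-voom called 2 higher and 1 lower. The list summed to 4790 to 5300 CPM in young mice 1184, 1186 and 1188. It summed to 6280 to 8170 CPM in the other 7 young mice and 5140 to 8210 CPM in old mice. The export pump genes Abcb1a (1.23, SE 0.282, edgeR adjusted p = 0.00411) and Abcc4 (0.92, SE 0.216) rose, from means of 1.13 and 1.41 CPM in young mice. Abcc2, the canalicular export pump gene (-0.43, SE 0.145), and Thrsp, a lipogenic regulator (-0.93, SE 0.329), fell. Of 13 genes of growth hormone signalling, the pathway that sets sex-biased P450 expression in rodent liver, 0 passed in edgeR, DESeq2 or limma-voom, and 1 had an unadjusted p under 0.05 in edgeR. Pericentral and periportal genes mark the ends of the liver lobule. The pericentral list had 0 higher and 6 lower of 16 and the periportal list 3 higher and 7 lower of 16, each with a median log2 fold change of -0.27. The periportal sum was 73400 to 75300 CPM in young mice 1184, 1186 and 1188, 115000 to 129000 CPM in the other 7 young mice and 101000 to 169000 CPM in old mice. On the first cull day alone 0 of the 16 passed, where 3.67% of all genes did, so that count says little. Pericentral Cyp1a2, a cytochrome of another subfamily, fell by 0.91 on the log2 scale (SE 0.145, edgeR adjusted p = 0.00029), beside Gulo (-0.43), Oat (-0.59) and Rhbg (-1.03). Periportal Cyp2f2 fell by 0.57 (SE 0.108), as did Ass1 (-0.61), while Ctsc rose (0.91).

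Neighbouring genes were read in the same way. Within 200 kb of a member lay 21 other genes, of which 15 were tested. In edgeR 4 rose and 1 fell, a share near the 30.9% called over all genes. All 4 that rose flank Cyp3a13. Its nearest neighbour on 1 side, Pilrb2, an immune receptor gene of myeloid cells at 21175 bases, rose by 1.51 (SE 0.552, edgeR adjusted p = 0.0444) beside its relatives Pilrb1 (1.64) and Pilra (1.35). Macrophage markers rose in the same fit (13 of 14, but 0 of 14 on the first cull day alone), and their part in this result was not tested. The fourth was Tsc22d4 (0.51). On the other side, Gjc3, a gap junction gene at 32190 bases, did not pass (-0.28, edgeR adjusted p = 0.454). The cluster's nearest neighbours were Cyp3a57, a gene of the subfamily that is not among the 8, and 1700001J03Rik, both too low to be tested. Beyond them, Cdk8, a Mediator kinase gene, fell by 0.30 (SE 0.0931, edgeR adjusted p = 0.022).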

How the data were processed

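The authors deposited 1 table of estimated counts per gene for the 19 libraries. Per the file headers, HOMER's analyzeRepeats.pl counted reads over exons of RefSeq transcripts on mm10, condensed transcripts to genes and left the counts raw. STAR and HOMER are named in the submitters' processing notes; strand setting, multi-mapping and versions are not given in the sources used here. Libraries were stranded and paired-end, per the labels' protocols. The deposited counts were multiples of 0.5 (29.2% of values not whole) and were rounded to whole counts, although the tests had been laid down for plain counts. Genes held 78.3% to 86.5% of the totals in the column headers.

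Age was tested with edgeR 4.0.16 (quasi-likelihood, R 4.3.3), trimmed mean of M-values (TMM) scaling, filterByExpr (minimum count 10), cull day as covariate and Benjamini-Hochberg adjustment over all 12269 genes tested, with a threshold of 0.05. CPM used TMM-scaled totals and per-kb levels the table's transcript lengths. The 2 members below the filter were tested by an exact permutation of ages inside each cull day (31752 arrangements). Likeness used log2 CPM (prior count 2). Identity came from global alignment (Biopython 1.88) over aligned bases, of the first protein-coding transcript per gene and of RefSeq windows. The scripts were tested on simulated data. DESeq2 1.42.0 and limma 3.58.1 (voom with sample weights) were alternatives, beside other scaling, filters, sample sets and a summed feature.

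Named genes were all members, up to 4 genes of each list with the smallest adjusted p past the threshold, Nr1i2, Nr1i3, Rxra, Hnf4a, Por, Alas1, Alb and Saa1, the nearest neighbours, and for each tested member the 3 genes most like it. Predicted or unnamed genes were left out of that likeness ranking. Mice by number, list genes read with the acute-phase sums, and other neighbours were chosen after their values were seen. The count over the haem list and 3 genes that the rule names are not reported here. Members and lists were chosen with earlier results of these data known. Depth was 17381439 to 20287628 counts per library; the floor was 3 counts.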

Additional observations from a re-analysis of the deposited data

Results flagged for a closer look

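Within each age group, the gap of the highest or lowest mouse to its neighbour was compared with the whole range of the group (Dixon's critical values, 16 groups of 9 or 10 mice; chance flags about 1 in 20 such groups). Cyp3a59 stood out in young mouse 1186 at 42.6 CPM, where the next young mouse had 26.5 CPM. It also stood out in old mouse 1181 at 41.2 CPM, where the next old mouse had 26.0 CPM. Cyp3a41a stood out in old mouse 1181 at 2.25 CPM (43.5 counts), where the next old mouse had 1.43 CPM. Mouse 1181 also had the highest Cyp3a11 of all 19 libraries (3388 CPM).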

How the results depend on the processing

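No member was called in edgeR with all mice, and the same held in 30 of 32 alternatives, among them DESeq2, limma-voom, other scalings, no filter, and each mouse left out (0 to 0 members). The exceptions were the second cull day alone and the fit without young mice 1184, 1186 and 1188, with 1 member each, Cyp3a13. Directions that turned, none past the threshold, were Cyp3a13 on the first cull day alone (-0.06), Cyp3a41a on that day (0.22), Cyp3a59 on the second cull day (0.04) and without the 3 young mice (0.12), and Cyp3a44 in limma-voom (0.00385). With single mice left out, log2 fold changes ranged from -0.21 to 0.06 for Cyp3a59 (0.06 without 1186, 0.03 without 1189), from -0.22 to -0.02 for Cyp3a41a and from -0.19 to 0.11 for Cyp3a44 (0.11 without 1180, 0.02 without 1236, 0.02 without 1237). For the old minus young CPM of Cyp3a16 the range was -0.0467 to 0.00682 (0.00682 without 1180, 0.000964 without 1187, 0.0052 without 1244), and for Cyp3a41b it was 0.0201 to 0.0499. Over all genes, 3785 calls became 450 and 2388 on the first and second cull day, fewer mice each, and 3014 to 3949 with single mice left out. Library totals alone called 2098 higher of 3270, against 2005 of 3785. The interaction called 0 genes in edgeR (799 at an unadjusted p under 0.05), 20 in DESeq2, 307 in limma-voom and 0 to 1 with single mice left out; the cause was not tested. Among neighbours, 5 calls became 3 within 100 kb and 12 within 500 kb, fewer and more genes tested. Cyp3a44 could not be fitted on the first cull day alone, with a filter of 1 CPM or without young mouse 1244, so its single-mouse range covers 18 fits. Depth limits Cyp3a16, Cyp3a41b and Cyp3a44, which had 0 to 19.5 counts. No paired analysis was possible because the library numbers are not shared between ages.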

Other observations

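The acute-phase genes did not rise in fixed proportion among the mice with large sums over the list. Old mouse 1189 had a sum of 89670 CPM, close to that of young mouse 1184 (93650 CPM), but 141 CPM of Saa1, a serum amyloid gene, against 5109 CPM. In the other old mice Saa1 ranged from 32.3 to 595 CPM, and in the 7 other young mice from 15.8 to 33.9 CPM. Cyp3a13 was 277 CPM in mouse 1189 and 249 CPM in mouse 1184, while Cyp3a25 was 191 and 419 CPM.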
